A study of Mus musculus and Homo sapiens
Mus musculus with 14 samples.

Results

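The genes described here are those for dopamine synthesis, storage, reuptake and breakdown: Th, Ddc, Gch1, Pts, Spr, Qdpr, Slc18a2, Slc6a3 and Maob. They were chosen by name from the known biochemistry of dopamine, and 9 of 9 were measured among the 25357 genes of the series. The count table of the amacrine cells held 9 of them among 18415 genes, and that of the retinal layers held 8 among 24460 (Slc6a3 was not analysed in the layers).

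Both tables came from Light-Seq, in which RNA in a fixed tissue section is copied to cDNA in place and DNA barcodes are crosslinked with light to the cDNA of cells picked under the microscope. All sections were retina of wild-type CD1 IGS mice in the third postnatal week, with no treatment. In 5 sections, cell bodies stained by an antibody to the TH protein (TH+) and amacrine cells without the stain (TH-) received different barcodes. In 4 other sections, 3 regions were barcoded by their place in the tissue: the outer nuclear layer (ONL) with the cell bodies of rods and cones, the bipolar cell layer (BCL) and the ganglion cell layer (GCL).

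Dopamine is made from tyrosine, which tyrosine hydroxylase (Th) turns into L-DOPA with the cofactor tetrahydrobiopterin (BH4), and aromatic amino acid decarboxylase (Ddc) turns L-DOPA into dopamine. The vesicular transporter VMAT2 (Slc18a2) loads dopamine into synaptic vesicles, the plasma membrane transporter DAT (Slc6a3) takes it back up, and monoamine oxidases break it down. In the retina, a sparse type of amacrine cell makes dopamine, which is released in light and shifts retinal circuits from rod to cone vision.

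Values are unique molecular identifiers (UMIs), each standing for 1 captured cDNA molecule, and CPM, the UMIs of a gene per 1000000 UMIs of its library. The TH+ libraries held 30317 to 87449 UMIs (median 46245) and the TH- libraries 134394 to 200344 (median 152105). A single UMI was therefore worth 11.4 to 33.0 CPM in TH+ and 4.99 to 7.44 CPM in TH-. The ONL libraries held 310228 to 801105 UMIs, the BCL libraries 193869 to 208437 and the GCL libraries 585655 to 785013. A gene with 0 UMIs over all libraries of a population may still have had up to 11.7 CPM in TH+, 3.74 in TH-, 1.32 in ONL, 3.74 in BCL and 1.12 in GCL, the worth of 3 UMIs over the group.

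The labels were checked against marker genes. Rod markers (8 of 8 with UMIs in each population) made up 6.40% ± 0.617 of UMIs in ONL, 1.52% ± 0.363 in BCL and 0.579% ± 0.145 in GCL (SD, n = 4). Bipolar markers were 8 of 8 higher in BCL than in GCL, and ganglion cell markers were 8 of 8 higher in GCL than in BCL. Amacrine markers (8 of 8 with UMIs) made up 0.462% ± 0.0775 of UMIs in TH+ and 0.631% ± 0.127 in TH- (SD, n = 5). Rod markers were also present in the amacrine libraries, at 2.79, 1.39, 3.53, 3.57 and 3.45% of UMIs in TH+ sections 1 to 5 and at 2.07, 0.792, 2.01, 2.11 and 1.60% in TH-. They were higher in TH+ in every section, and in edgeR's test without pairing 0 of 8 single rod genes passed (5 at an unadjusted p under 0.05, 0 by DESeq2). With sections paired as blocks in the fit, 7 of 8 were called higher in TH+, where 2.41% of all genes were called. In that fit 2 amacrine markers, 1 bipolar and 1 Müller glia marker were called lower in TH+ (1, 0 and 1 without pairing).

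The comparison of TH+ with TH- cells asks how the RNA of dopamine cells differs from that of other amacrine cells of the same sections. RNA for the first enzyme, for the decarboxylase and for the vesicle transporter was far more abundant in TH+ than in TH- cells. Qdpr was present in both populations with no difference past the test, and Slc6a3, Pts and Maob were at or near 0 in both. Together the 9 genes made up 974 ± 268 CPM in TH+ and 97.8 ± 46.0 CPM in TH- (SD, n = 5), from 238 and 83 UMIs. Without Th and Slc18a2 the sum was 177 ± 77.3 CPM in TH+ (86.5 to 297; SD, n = 5), from 43 UMIs. In TH- it was 53.9 ± 17.9 CPM (37.2 to 79.9; SD, n = 5), from 45 UMIs. These groups did not overlap, but only narrowly. The lowest TH+ library, section 4, stood at 86.5 CPM on 4 UMIs, and the highest TH- library, also section 4, at 79.9 CPM on 16 UMIs. Ddc made up 21.6 CPM of that TH+ sum, more than the gap, so the separation depended on Ddc being counted.

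Th (ENSMUSG00000000214, GRCm39 chr7:142443466-142484865, minus strand, 13 exons in the canonical transcript) encodes the rate-limiting enzyme of the pathway. Its RNA stood at 469.6, 423, 518, 303 and 659.7 CPM in TH+ sections 1 to 5 (23, 37, 22, 14 and 20 UMIs). In TH- sections 1 to 5 it stood at 19.7, 11.6, 14.9, 49.9 and 14.1 CPM (3, 2, 2, 10 and 2 UMIs). Every TH+ library was above every TH- library, section 4 was the lowest of the TH+ and the highest of the TH- libraries, and the groups did not overlap. The means were 474 ± 131 and 22.04 ± 15.9 CPM (SD, n = 5), a log2 fold change of 4.23 ± 0.32 (SE) with an adjusted p of 1.5e-18 by edgeR's quasi-likelihood test, higher in 5 of 5 sections. Without section 4 it was 4.92. Since the TH+ cells were picked by a stain for the TH protein, this difference checks the labels and is not a finding. The ratio of UMIs summed over sections was 19.2 (95% counting interval 11.7 to 33.0).

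Ddc (ENSMUSG00000020182, chr11:11762602-11848150, minus strand, 15 exons) encodes the decarboxylase that yields dopamine. Its TH+ values were 20.4, 45.7, 94.1, 21.6 and 66.0 CPM in sections 1 to 5, from 1, 4, 4, 1 and 2 UMIs. No TH- library had a Ddc UMI, among 801567 UMIs in all. Each TH+ library thus had Ddc RNA and the groups did not overlap, on a total of 12 UMIs. Against the worth of 3 UMIs over the TH- group, Ddc was at least 12.5-fold higher in TH+. This takes the TH+ count as it is, and the pooled TH+ level of 47.0 CPM had a 95% counting interval of 24.3 to 82.0.

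Ddc did not enter the main test, which asked for about 3 UMIs at the median depth in enough libraries and 10 in all. With no filter on low counts, edgeR called Ddc at an adjusted p of 0.000345, higher in 5 of 5 sections, where 0.375% of the 18415 genes tested were called. The fitted log2 fold change of a gene at 0 in a group depends on the method and is not given.

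The next 4 genes serve the cofactor. Gch1 (GTP cyclohydrolase, ENSMUSG00000037580, chr14:47391346-47426915, minus strand, 6 exons) carries out the first step of BH4 synthesis. It had 2 UMIs in TH+ section 1 and 2 in section 2, with 0 in the other TH+ libraries and 0 in all TH- libraries. Its TH+ mean was 12.7 ± 18.6 CPM (SD, n = 5), and the groups overlapped because 3 TH+ libraries were at 0. Against the worth of 3 UMIs over the TH- group it was at least 4.18-fold higher, which takes the 4 TH+ UMIs as they are. With counting error on both sides the 95% intervals of the pooled level overlapped, at 4.27 to 40.1 CPM in TH+ and up to 4.602 CPM in TH-. In the unfiltered edgeR fit Gch1 was not called (adjusted p = 0.253, higher in 2 of 5 sections).

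Pts (6-pyruvoyltetrahydropterin synthase, ENSMUSG00000032067, chr9:50432917-50440024, minus strand, 6 exons) carries out the middle step. It had 2 UMIs in TH+ and 2 in TH-, both under the worth of 3 UMIs, so no fold is given. Spr (sepiapterin reductase, ENSMUSG00000033735, chr6:85107158-85114928, minus strand, 3 exons) completes BH4. It had 6 UMIs in TH+ (21.9 ± 13.8 CPM) and 5 in TH- (6.21 ± 4.21 CPM, SD, n = 5). The ratio of summed Spr UMIs was 3.77, but its counting interval ran from 0.957 to 15.6, and the groups overlapped.

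Qdpr (dihydropteridine reductase, ENSMUSG00000015806, chr5:45590463-45607587, minus strand, 7 exons) turns the used cofactor back into BH4. Its values were 40.8, 57.2, 94.1, 43.2 and 165 CPM in TH+ sections 1 to 5 and 39.4, 40.5, 29.8, 69.9 and 42.3 CPM in TH-. The groups overlapped: TH+ was the higher in 4 of 5 sections, while in section 4 TH- was the higher. The means were 80.1 ± 52.0 and 44.4 ± 15.1 CPM (SD, n = 5), and the log2 fold change of 0.62 ± 0.45 (SE) did not pass edgeR's test (adjusted p = 0.763). At 18 and 37 UMIs, the interval of the ratio of summed counts ran from 0.818 to 2.75.

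Slc18a2 (ENSMUSG00000025094, chr19:59249238-59284695, plus strand, 16 exons) encodes VMAT2. It stood at 225, 286, 423, 281 and 396 CPM in TH+ sections 1 to 5 (11, 25, 18, 13 and 12 UMIs). In TH- the values were 0, 57.9, 7.44, 29.9 and 14.1 CPM (0, 10, 1, 6 and 2 UMIs). The lowest TH+ library was above the highest TH- library, which was that of section 2, and the groups did not overlap. The means were 322 ± 84.0 and 21.9 ± 22.9 CPM (SD, n = 5), and the log2 fold change was 3.67 ± 0.37 (SE) with an edgeR adjusted p of 6.87e-12, higher in 5 of 5 sections. Without section 2 it was 4.37, and without only the TH- library of section 2, a choice made after seeing the data, it was 4.32. The ratio of summed UMIs was 13.04 (95% counting interval 7.83 to 22.8).

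Slc6a3 (ENSMUSG00000021609, chr13:73684866-73726801, plus strand, 15 exons), the gene for DAT, had 1 UMI in TH+ section 5 and none in any other amacrine library. Maob (monoamine oxidase B, ENSMUSG00000040147, chrX:16574807-16683686, minus strand, 15 exons), which breaks down dopamine at the mitochondrial outer membrane, had 0 UMIs in TH+ and 1 in TH-. Both genes were under the worth of 3 UMIs in both populations. For Maob in TH+ this allows up to 11.7 CPM, so a level below that was not detectable at this depth.

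Of the 9 genes, 3 had enough counts for the main test, and 2 of these (Th and Slc18a2) were called, both higher in TH+. Over all 6021 genes tested 48 were called, 0.797%, and 42 were called higher in TH+, 0.698%. Th and Slc18a2 passed the count filter mainly through the TH+ group where they were high. With sections paired as blocks in the fit, 145 genes (2.41%) were called, 96 higher and 49 lower in TH+, and the calls of the 3 genes were unchanged. In the unfiltered fit, 35 genes were called higher in TH+ and 34 lower. The sections were technical replicates, and the methods speak of a single source animal, so they are taken here to share it. The p-values cover the spread between sections and are too small for a statement about animals. The higher share of rod marker UMIs in TH+ went with these results. So did the share of UMIs from mitochondrially encoded genes, at 6.68 to 9.32% in TH+ and 6.23 to 8.12% in TH-, higher in TH+ in 5 of 5 sections. Neither's part in them was tested.

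**Figure D1:**
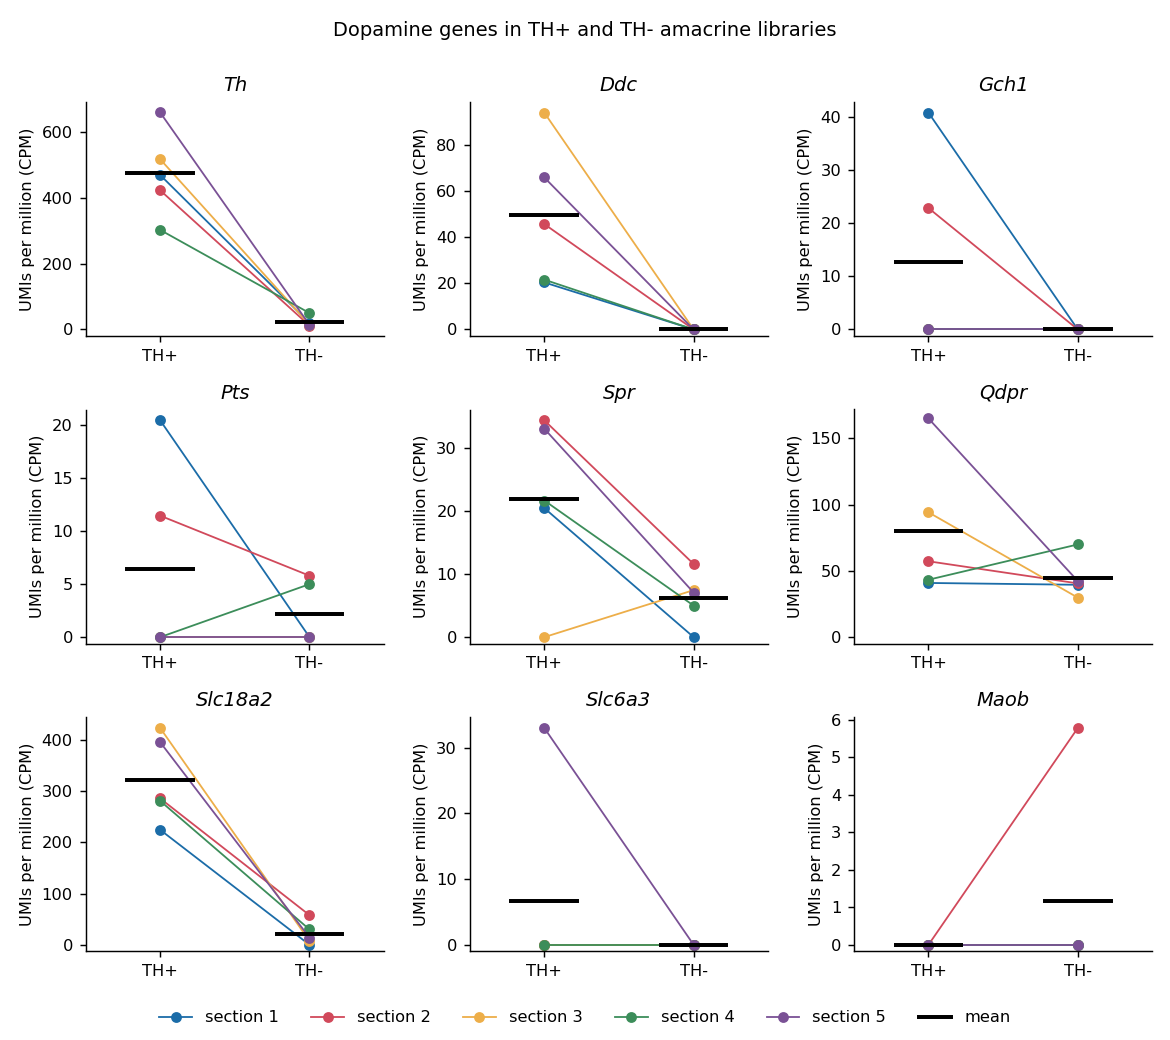
Level (vertical axis, CPM) of each of the 9 genes in the TH+ and TH- libraries, with 1 point for each of the 5 sections in each population. Th, Ddc and Slc18a2 do not overlap between populations, while Qdpr and Spr do, and Slc6a3, Pts and Maob rest on at most 2 UMIs in a population. The share of all genes without overlap was not counted.

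The amacrine libraries of a section can also be set side by side as shares of the UMIs that carried the TH+ barcode. Over all genes this share was 24.4, 33.6, 24.0, 18.8 and 17.6% in sections 1 to 5. For Th it was 88.5, 94.9, 91.7, 58.3 and 90.9%, and the Wilson 95% interval in section 4 ran from 38.8 to 75.5%. Section 4 thus stood below the other sections for Th, yet above the share of all genes.

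For Slc18a2 the TH+ share was 100, 71.4, 94.7, 68.4 and 85.7% in sections 1 to 5. For Qdpr it was 25, 41.7, 50, 12.5 and 45.5%, above the share of all genes in 4 of 5 sections, with section 4 again the lowest. All Ddc UMIs carried the TH+ barcode in each section.

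**Figure D2:**
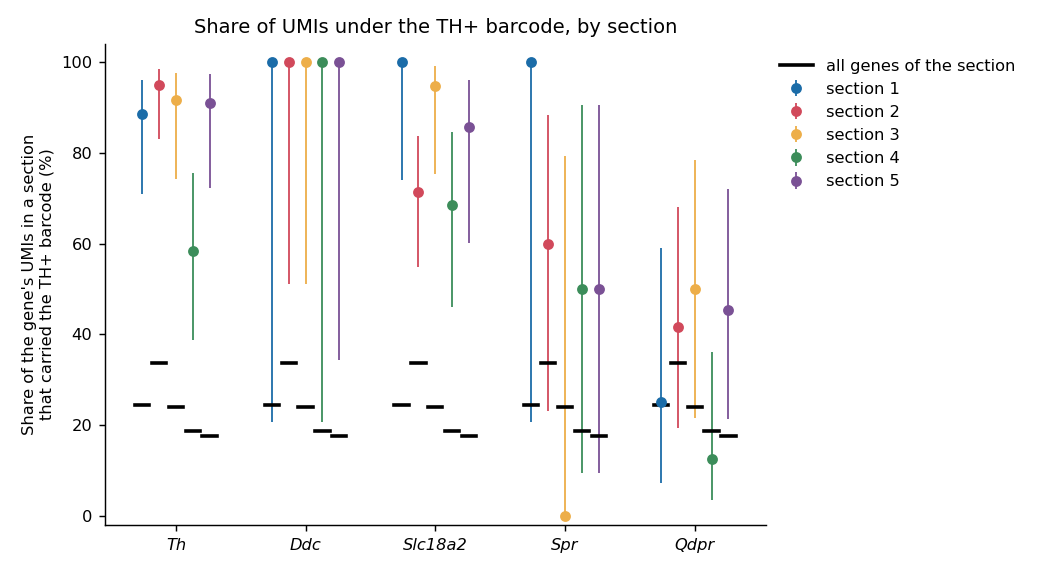
Share of the UMIs of Th, Ddc, Slc18a2, Spr and Qdpr that carried the TH+ barcode (vertical axis, %) in each of the 5 sections, with Wilson 95% intervals, and black lines for the share of all genes in that section. Th, Ddc and Slc18a2 lie above the black line in every section, while Qdpr lies above it in 4 of 5 sections.

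Within TH+ cells, levels were compared between genes per kilobase of exonic length. This is 1 annotated length per gene, from 1788 bases for Qdpr to 6251 for Gch1. The transcripts present in these cells may be shorter, and the orders of levels in cells and layers depend on this length. Th was highest at 201 ± 55.3 CPM per kb, followed by Slc18a2 at 61.7 ± 16.1, Qdpr at 44.8 ± 29.1 and Ddc at 11.1 ± 6.997 (SD, n = 5). The ranges of Th and Slc18a2 did not overlap, nor did those of Qdpr and Ddc, while Slc18a2 and Qdpr overlapped. Below Ddc came Spr at 6.17 CPM per kb, Gch1 at 2.04, Slc6a3 at 1.91 and Pts at 1.04, and each overlapped with its neighbour in this order.

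In TH- cells the order of levels was different. Qdpr came first at 24.8 ± 8.43 CPM per kb, then Th at 9.32 ± 6.71, Slc18a2 at 4.18 ± 4.39 and Spr at 1.75 ± 1.19 (SD, n = 5), with every neighbour overlapping. Maob and Pts were below 1 CPM per kb.

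Th, Ddc and Slc18a2 were all higher in TH+ with no overlap. The share of all genes without overlap was not counted, so how unusual this was is not known. Promoters were searched for a motif where available. The RefSeq promoter table (build GRCm38.p6, 250 bases before to 50 after the start) had an entry for 8 of the 9 genes, in 9 windows since Ddc had 2. The motif TGACGTCA, the palindromic cAMP response element, was searched on both strands, where it reads the same. It was chosen after the values of the genes were seen. It was found in the windows of 2 genes, Th and Slc18a2, but in neither window of Ddc, and in 588 of all 32851 windows (1.79%), or 549 of 27025 genes (2.03%). Below, for the genes with the motif, are 110 bases before to 10 bases after each RefSeq start, 5′ to 3′ on the gene's strand, with the motif in capitals. By a match of the sequence to GRCm39 the Th window lies at chr7:142453723-142453842 (minus strand) and the Slc18a2 window at chr19:59249200-59249319 (plus strand).
Th: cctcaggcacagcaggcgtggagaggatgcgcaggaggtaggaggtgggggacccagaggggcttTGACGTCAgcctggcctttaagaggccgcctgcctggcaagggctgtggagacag
Slc18a2: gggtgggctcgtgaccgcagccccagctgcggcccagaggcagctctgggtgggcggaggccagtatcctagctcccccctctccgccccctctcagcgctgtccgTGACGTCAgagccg
The motif stood at positions -45 to -38 from the start in Th and at -4 to 4, across the start, in Slc18a2. These RefSeq starts lie 19 bases (Th) and 72 bases (Slc18a2) downstream of the start of the canonical transcript in GRCm39. The match describes these letters only, and no binding was measured.

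The genes most like Th over the 10 amacrine libraries were ranked by Pearson's r of log2 CPM among the 6021 genes tested. The highest included Cartpt (r = 0.990), Tspyl2 (0.968), Vgf (0.955) and Sstr2 (0.949). Slc18a2 came at rank 8 (r = 0.938) and Qdpr at rank 222 (r = 0.624). The libraries fall into the 2 populations, so r mainly reflects the step between them: with the population means removed, r fell to 0.729 for Cartpt and 0.252 for Sstr2.

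Cartpt, which encodes a neuropeptide precursor, stood at 2021, 2013, 3247, 1492 and 3200 CPM in TH+ sections 1 to 5. In TH- its values lay between 112 and 185 CPM, so the groups did not overlap. Like Th, Cartpt was lowest among the TH+ libraries in section 4. Its log2 fold change was 4.02 ± 0.19 (SE), with an edgeR adjusted p of 5.83e-28 and higher values in 5 of 5 sections. Cartpt was chosen for its likeness to Th over these same libraries. A difference between TH+ and TH- therefore came with the choice, and these values describe it without being a test of it.

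Other genes of the pathway were taken from 6 lists of 41 genes in all. Among the other monoamine transporters and SV2 vesicle proteins, 4 of 10 entered the test in the amacrine cells and 1 was called, where 0.797% of all genes were called, with a list median log2 fold change of 0.33 against -0.04 over all genes. The called gene was Slc29a4, a plasma membrane monoamine transporter, at 61.2, 80.0, 188, 64.9 and 132 CPM in TH+ and 19.7, 11.6, 44.6, 19.97 and 49.3 CPM in TH-. The groups did not overlap, with section 3 the highest of TH+ and section 5 the highest of TH-. Its log2 fold change was 1.80 ± 0.46 (SE; edgeR adjusted p = 0.0307, higher in 5 of 5 sections). The call was lost when any 1 section was left out (adjusted p from 0.0528 without section 5 to 0.241 without section 3; 0.0647, 0.0716 and 0.104 without sections 1, 2 and 4). It was also lost without the TH- library of section 2 (0.0809) or of section 4 (0.1) and with no filter (0.101).

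Of the genes for breakdown and conversion, Aldh2, an aldehyde dehydrogenase, had 12 UMIs in TH+ and 39 in TH-. Its log2 fold change of -0.05 ± 0.54 (SE) was not called (edgeR adjusted p = 0.989, higher in TH+ in 2 of 5 sections). Maoa, the other monoamine oxidase, was too low for the test, at 14 UMIs in TH+ and 15 in TH-. Its levels were 55.4 ± 29.6 and 18.9 ± 4.15 CPM (SD, n = 5), higher in TH+ in 5 of 5 sections, with groups that overlapped.

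Of the other BH4 genes 0 of 6 entered the amacrine test. Cbr1, a carbonyl reductase that can act in BH4 synthesis, had 4 UMIs in TH+ and 36 in TH-, at 13.6 ± 12.4 and 43.5 ± 18.6 CPM (SD, n = 5). It was higher in TH+ in 0 of 5 sections, and the groups overlapped. The other aromatic amino acid hydroxylases, of which 0 of 3 entered the test, had 0 UMIs for Tph1 and Tph2 in TH+, and 1 and 6 in TH-.

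Of the midbrain dopamine transcription factors, 1 of 8 was tested. Nr4a2, an orphan nuclear receptor, stood at 108 ± 24.4 CPM in TH+ and 54.7 ± 34.5 in TH- (SD, n = 5), and its log2 fold change of 1.01 ± 0.39 (SE) was not called (edgeR adjusted p = 0.353, higher in 4 of 5 sections). Of the kinases and the 14-3-3 protein that act on the TH protein, 6 of 7 were tested and edgeR called 0 (2 at an unadjusted p under 0.05, 0 by DESeq2; 0.797% of all genes were called), with a median of -0.21 log2.

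The comparisons of the layers ask in which of the 3 barcoded regions these RNAs were found. The paper places the layer of amacrine cell bodies outside the barcoded BCL, and it was not among the 3 regions. Low counts in the 3 regions therefore say nothing about that layer. The layers held these RNAs at low levels: summed over 8 genes, they made up 50.8 ± 8.34 CPM in ONL, 61.1 ± 17.2 in BCL and 44.4 ± 9.52 in GCL (SD, n = 4). The BH4 genes Qdpr, Spr and Pts and the transporter gene Slc18a2 were found in all 3 layers, while Th, Ddc, Gch1 and Maob had few or no UMIs. Slc18a2 was higher and Qdpr lower in ONL than in GCL. These are bulk values of a layer, in which fewer cells of a type and less RNA per cell cannot be told apart.

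Th had 0, 1, 3 and 4 UMIs in GCL sections 1 to 4 (0, 1.499, 4.61 and 6.83 CPM), 3, 1, 0 and 0 in ONL (3.75, 1.38, 0 and 0 CPM) and 0 in BCL. GCL and ONL overlapped. The ratio of GCL to ONL over summed UMIs was 1.69 (95% counting interval 0.453 to 7.67). The absence of UMIs in BCL allows up to 3.74 CPM, above the GCL mean of 3.23 ± 3.07 CPM (SD, n = 4), so a difference was not detectable at this depth.

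Ddc had 1 UMI in the layers, in GCL section 1, and Gch1 had 1, in BCL section 4. Both were under the worth of 3 UMIs in every layer.

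Qdpr, which recycles BH4, stood at 6.24, 8.30, 11.4 and 16.1 CPM in ONL sections 1 to 4. In BCL it stood at 15.5, 24.0, 30.5 and 39.6 CPM, and in GCL at 16.6, 20.98, 19.98 and 25.6 CPM. Section 1 was the lowest and section 4 the highest in each layer. The ONL values rested on 5, 6, 5 and 5 UMIs, while the ONL library totals fell from 801105 in section 1 to 310228 in section 4. The BCL values rested on 3, 5, 6 and 8 UMIs and the GCL values on 13, 14, 13 and 15. The highest ONL value lay just below the lowest GCL value, so these groups did not overlap, while ONL and BCL overlapped by section 4 of ONL against section 1 of BCL.

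For ONL against GCL the Qdpr log2 fold change was -0.95 ± 0.36 (SE; edgeR adjusted p = 0.0198, lower in ONL in 4 of 4 sections). That call was lost without section 1 (adjusted p = 0.0775) and without section 2 (0.079). For ONL against BCL it was -1.20 ± 0.45 (edgeR adjusted p = 0.0279, lower in ONL in 4 of 4 sections). That call was lost without any 1 section (adjusted p from 0.0591 to 0.125) and with no filter (0.0773). Between BCL and GCL Qdpr was not called (log2 0.25 ± 0.38, edgeR adjusted p = 0.654, higher in BCL in 3 of 4 sections).

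Pts, of the middle step of BH4 synthesis, stood at 11.2, 8.30, 6.85 and 12.9 CPM in ONL sections 1 to 4. In BCL it stood at 15.5, 14.4, 10.2 and 9.89 CPM (3, 3, 2 and 2 UMIs). In GCL it stood at 7.64, 4.50, 6.15 and 3.42 CPM (6, 3, 4 and 2 UMIs). GCL was the lowest layer in each section and did not overlap with BCL, while ONL overlapped with both. No Pts difference passed edgeR's test: the adjusted p was 0.0837 for ONL against GCL (log2 0.94 ± 0.48, higher in 4 of 4 sections) and 0.214 for BCL against GCL (log2 0.97 ± 0.60, higher in 4 of 4). For ONL against BCL it was 0.977 (log2 -0.03 ± 0.55, higher in 1 of 4).

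Spr, of the last step, stood at 11.2, 11.1, 11.4 and 6.45 CPM in ONL, 0, 4.80, 15.2 and 14.8 CPM in BCL and 8.92, 1.499, 6.15 and 6.83 CPM in GCL sections 1 to 4. All 3 layers overlapped, and BCL ranged most widely, on 0, 1, 3 and 3 UMIs in sections 1 to 4. No Spr difference passed edgeR's test, with an adjusted p of 0.0821 for ONL against GCL (log2 0.97 ± 0.49, higher in 3 of 4 sections). It was 0.515 for ONL against BCL (log2 0.59 ± 0.63, higher in 2 of 4) and 0.721 for BCL against GCL (log2 0.38 ± 0.69, higher in 3 of 4).

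Slc18a2, the vesicle transporter gene, stood at 23.7, 26.3, 9.13 and 16.1 CPM in ONL sections 1 to 4 (19, 19, 4 and 5 UMIs). In BCL it stood at 10.3, 9.60, 15.2 and 9.89 CPM (2, 2, 3 and 2 UMIs), and in GCL at 2.55, 3.00, 12.3 and 3.42 CPM (2, 2, 8 and 2 UMIs). In section 3 ONL was the lowest of the layers, and in the other 3 sections it was the highest. ONL overlapped with both other layers through section 3.

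For ONL against GCL the Slc18a2 log2 fold change was 2.09 ± 0.43 (SE; edgeR adjusted p = 2.26e-05, higher in 3 of 4 sections). It rose to 3.06 without section 3 (adjusted p = 1.52e-07) and to 2.86 without only the GCL library of section 3 (1.03e-06), the latter chosen after seeing the data. For ONL against BCL it was 1.18 ± 0.52 and was not called (edgeR adjusted p = 0.065, higher in 3 of 4), but without section 3 it was called (log2 1.57, adjusted p = 0.0262). Between BCL and GCL it was not called (log2 0.91 ± 0.66, edgeR adjusted p = 0.298, higher in BCL in 4 of 4).

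The Slc18a2 layer values are uncertain on 1 further account. Slc18a2 shares 475 exonic bases with Pdzd8, a gene on the opposite strand. LncRNA genes on the opposite strand also overlap exons of Slc18a2 and of Th, Ddc, Pts, Spr and Qdpr. These overlaps come from a later gene annotation than the one the authors counted with. None of these lncRNA genes was among the genes counted, so their overlaps may not apply to these counts. The authors counted with the default settings of featureCounts, which take no account of strand and leave reads that overlap exons of more than 1 gene unassigned. RNA of either strand in the other exonic bases of a gene therefore cannot be told apart. Pdzd8 stood at 413 ± 19.0 CPM in ONL, 139 ± 38.9 in BCL and 167 ± 20.2 in GCL (SD, n = 4), so its RNA was also highest in ONL, and its part in the Slc18a2 values was not tested. In the amacrine libraries Pdzd8 stood at 87.0 ± 49.7 CPM in TH+ and 117 ± 61.0 in TH- (SD, n = 5), with no higher mean in TH+. Rod markers also moved with Slc18a2 between the layers, 8 of 8 being higher in ONL than in GCL (median log2 3.61), and their part was not tested.

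Maob had 1, 2, 3 and 3 UMIs in GCL sections 1 to 4 (1.27, 3.00, 4.61 and 5.12 CPM), 1 UMI in ONL section 1 (1.25 CPM) and 0 in BCL. Every GCL library was above every ONL library, if narrowly in section 1. The ratio of GCL to ONL over summed UMIs was 7.61, with a 95% counting interval of 1.05 to 333. The gene was too low for the main test, and the unfiltered edgeR fit did not call it (adjusted p = 0.0965, higher in GCL in 4 of 4 sections). In BCL 0 UMIs allow up to 3.74 CPM, more than the GCL mean of 3.50 ± 1.74 CPM (SD, n = 4).

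**Figure D3:**
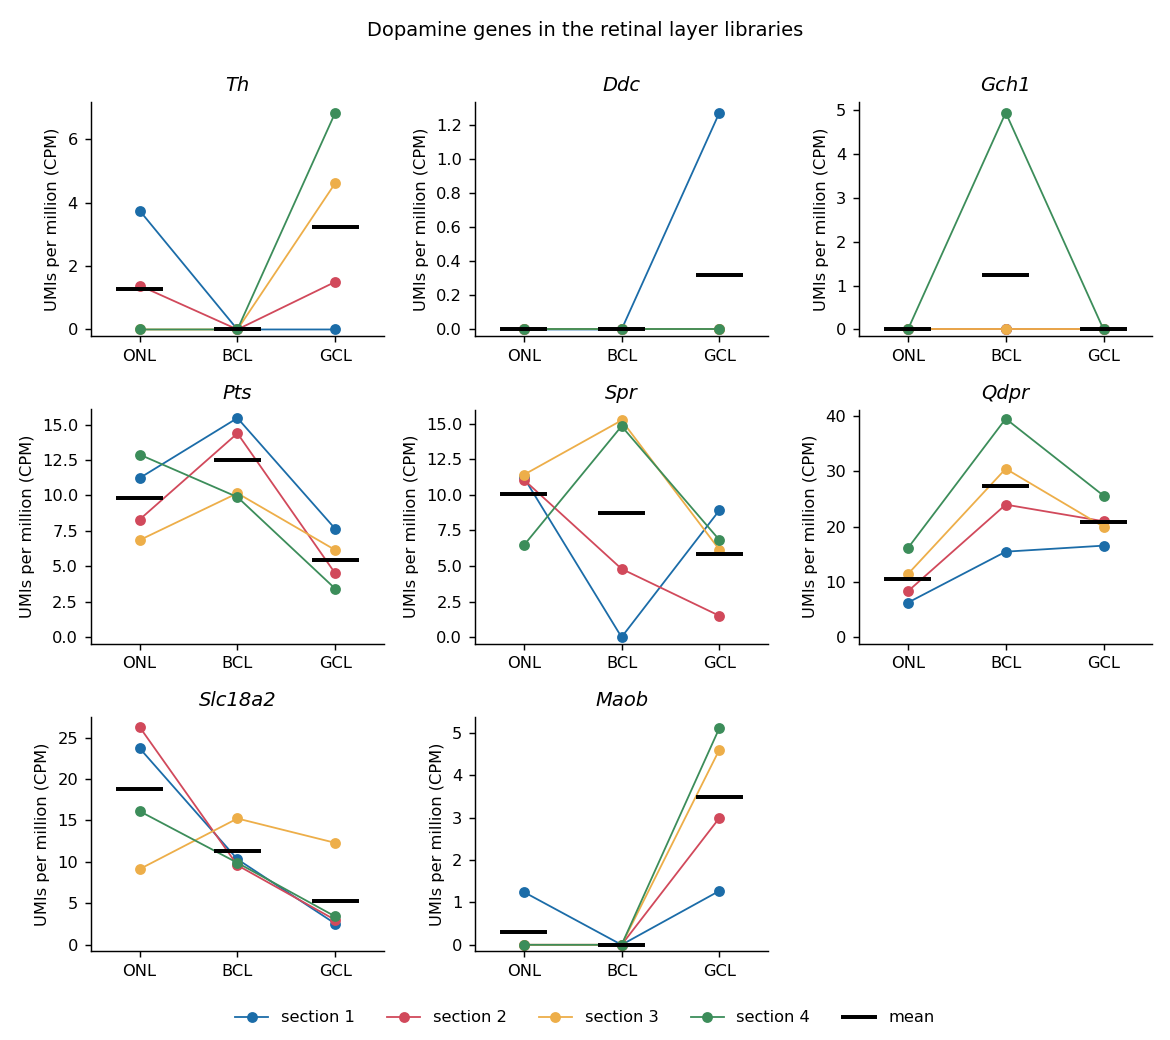
Level (vertical axis, CPM) of each gene in the ONL, BCL and GCL libraries, with 1 point for each of the 4 sections in each layer. Slc18a2 is highest in ONL in 3 of 4 sections, Qdpr is lower in every ONL library than in any GCL library, and Maob has UMIs in each GCL library and in 1 ONL library.

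Of the 8 genes with layer counts, 4 (Slc18a2, Pts, Qdpr and Spr) entered the test. For ONL against BCL 1 of 4 was called, lower in ONL, where 36.7% of all 11324 genes were called. For ONL against GCL 2 of 4 were called, 1 in each direction, where 61.6% of all genes were called. For BCL against GCL edgeR called 0 of 4 (0 at an unadjusted p under 0.05, 0 by DESeq2), where 36.5% of all genes were called. In each comparison the share called among the 4 genes was below that of all genes, and these counts are no result about the genes as a group.

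The median log2 fold change of the 4 genes was 0.28 for ONL against BCL (0.09 over all genes), 0.95 for ONL against GCL (0.01 over all) and 0.64 for BCL against GCL (-0.02 over all). The 3 comparisons share libraries. The 4 layer sections came from 1 animal, so these p-values are too small for a statement about animals. The mitochondrially encoded share of UMIs also differed between the layers, at 4.26 to 5.50% in ONL, 5.71 to 6.79% in BCL and 8.59 to 9.36% in GCL, and its part in the layer differences was not tested.

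**Figure D4:**
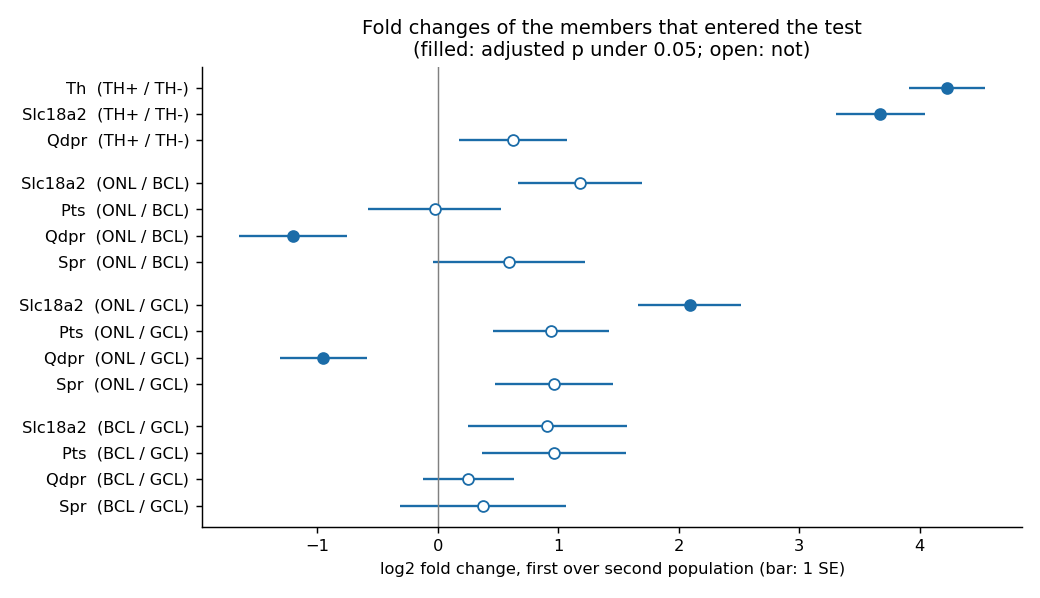
Log2 fold change (horizontal axis, with bars of 1 SE) of each gene that entered the test in each comparison, with filled points for an adjusted p under 0.05. Th and Slc18a2 in TH+ against TH- lie farthest to the right, at 4.23 and 3.67, and the called layer differences lie between -1.20 and 2.09.

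Scaling mattered for the split of all genes between the layers. With column totals only in place of TMM, the genes called higher and lower in ONL against BCL went from 2103 and 2056 to 1206 and 2877, and the median of all genes shifted by -0.33 log2. For BCL against GCL they went from 1838 and 2296 to 2348 and 1876, with a shift of 0.16, and for ONL against GCL the shift was -0.17. The calls of the 4 genes were the same under both scalings.

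Per kilobase, Qdpr was the highest of the genes in each layer, at 5.88 ± 2.40 CPM per kb in ONL, 15.3 ± 5.69 in BCL and 11.6 ± 2.09 in GCL (SD, n = 4). Its range did not overlap with that of the next gene, Spr, in BCL and GCL, but overlapped with Slc18a2 in ONL. After Qdpr, the order in ONL was Slc18a2 (3.60 CPM per kb), Spr (2.83), Pts (1.61), Th (0.542) and Maob (0.112), with each neighbour overlapping. In BCL it was Spr (2.46), Slc18a2 (2.15), Pts (2.04) and Gch1 (0.198), where Pts and Gch1 did not overlap. In GCL it was Spr (1.65), Th (1.37), Maob (1.25), Slc18a2 (1.02), Pts (0.889) and Ddc (0.0714), where Pts and Ddc did not overlap.

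The genes most like Qdpr over the 12 layer libraries, by Pearson's r of log2 CPM among 11324 genes, were Tmem132b (r = 0.933), Eef1g (0.908), Tomm34 (0.876), Hdgf (0.854) and Trmt6 (0.853). With the layer means removed r was 0.856 for Tmem132b and 0.690 for Trmt6. The other tested genes of the pathway were not like it, with r of -0.55 for Slc18a2, -0.40 for Pts and -0.05 for Spr. The libraries of a section share tissue.

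Maoa and Aldh2, which act in breakdown, were both lower in ONL than in GCL. Maoa, which oxidises dopamine and serotonin, stood at 31.1 ± 3.32 CPM in GCL, 6.29 ± 2.69 in BCL and 5.23 ± 2.58 in ONL (SD, n = 4). Its log2 fold change was -2.44 ± 0.38 for ONL against GCL and -2.42 ± 0.51 for BCL against GCL (edgeR adjusted p = 1.04e-07 and 7.77e-05, lower than GCL in 4 of 4 sections in both). Aldh2 stood at 40.5 ± 11.99 CPM in GCL, 25.0 ± 5.91 in BCL and 6.26 ± 6.62 in ONL (SD, n = 4). Its log2 fold change was -2.84 ± 0.38 for ONL against GCL and -1.97 ± 0.55 for ONL against BCL (edgeR adjusted p = 2.13e-09 and 0.00265, lower in ONL in 4 of 4 sections in both). Between BCL and GCL Aldh2 was not called (log2 -0.87 ± 0.36, edgeR adjusted p = 0.0504, higher in BCL in 1 of 4 sections), but 6 of 13 alternatives called it, also lower in BCL (adjusted p 0.0227 to 0.0444 in these, 0.0444 with sections paired as blocks, up to 0.273 in the others). The 0.0227 came without the GCL library of section 3, chosen after seeing the data.

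Of the other BH4 genes 3 of 6 were tested in the layers. Cbr1 (-0.85 log2) and Pcbd1 (-2.15 log2), a dehydratase that restores BH4, were called lower in ONL than in GCL, where 61.6% of all genes were called, with a list median of -0.85. Pcbd1 was also lower in ONL than in BCL (-2.34 log2), on 4 and 10 UMIs, a call that was lost without section 1 (edgeR adjusted p = 0.164) or 2 (0.0552). Cbr1 was called lower in ONL than in BCL only with column totals in place of TMM (0.0141). Between BCL and GCL edgeR called 0 of 3 (0 at an unadjusted p under 0.05, 0 by DESeq2), where 36.5% of all genes were called. The other hydroxylases had 0 of 3 tested.

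Of the transporter and SV2 list 4 of 10 were tested, and the SV2 vesicle proteins differed in direction. Sv2b stood at 820 ± 131 CPM in ONL, 540 ± 62.1 in BCL and 189 ± 30.8 in GCL, whereas Sv2c stood at 39.4 ± 16.3, 34.9 ± 6.55 and 408 ± 68.9 CPM (SD, n = 4). Sv2a stood at 105 ± 29.3, 267 ± 67.7 and 649 ± 24.6 CPM in the same order. For ONL against GCL 4 of 4 were called (61.6% of all genes), Sv2b higher (2.30 log2) and Sv2a (-2.46), Sv2c (-3.19) and Slc29a4 (-2.28) lower. For BCL against GCL 4 of 4 were called (36.5% of all) with the same directions (Sv2b 1.35, Sv2a -1.45, Sv2c -3.70 and Slc29a4 -1.66 log2). For ONL against BCL 2 of 4 were called (36.7% of all), Sv2b higher (0.95) and Sv2a lower (-1.02), and Slc29a4 was called lower only without section 1 (edgeR adjusted p = 0.0442).

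Nr4a2, the 1 tested gene of 8 transcription factors, stood at 31.2 ± 7.34 CPM in GCL, 7.06 ± 3.28 in ONL and 2.47 ± 4.94 in BCL (SD, n = 4). It was called lower than in GCL in ONL (-1.78 log2) and in BCL (edgeR adjusted p = 5.22e-06, lower in 4 of 4 sections). BCL had only 2 UMIs, both in section 4, which is under the worth of 3 UMIs, so the ratio of summed UMIs is given: 12.5 for GCL to BCL (95% counting interval 3.36 to 105). Between ONL and BCL it was not called (adjusted p = 0.0908, higher in ONL in 3 of 4 sections; ratio 3.17, interval 0.760 to 28.2), except without section 4, where BCL was at 0 (0.00792; up to 0.423 in the other alternatives). Of 7 genes for kinases and the 14-3-3 protein, 6 were called lower in ONL than in GCL, 5 lower in BCL than in GCL and 3 lower in ONL than in BCL, where 61.6, 36.5 and 36.7% of all genes were called. With column totals only, Prkaca was not called between BCL and GCL (edgeR adjusted p = 0.0601), and Cdk5 was called lower in ONL than in BCL (0.0415, against 0.337 with TMM). Camk2a, a subunit of a calcium-dependent kinase, was the most different, at -2.94 log2 for ONL against GCL and -3.29 for BCL against GCL.

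**Figure D5:**
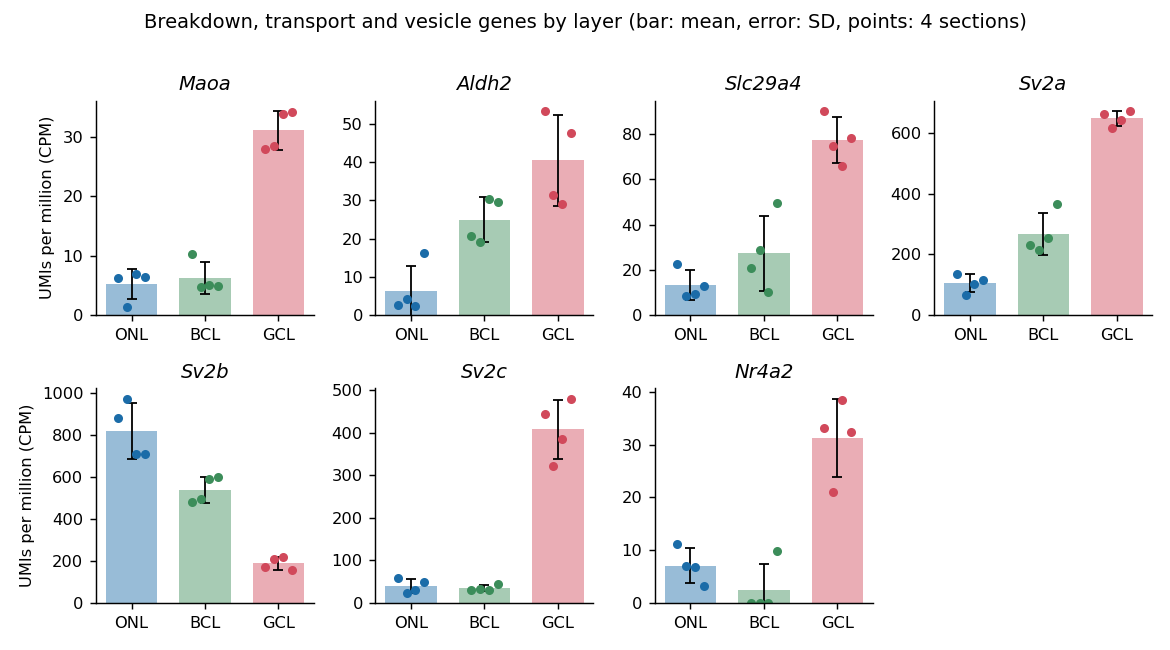
Level (vertical axis, CPM) of 7 further pathway genes in ONL, BCL and GCL, with bars for the mean, error bars for the SD and points for the 4 sections. Maoa, Aldh2, Slc29a4, Sv2a, Sv2c and Nr4a2 have their highest mean in GCL, and Sv2b has it in ONL.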

How the data were processed

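The authors extracted UMIs with UMI-tools 1.1.1, aligned reads to GRCm39 (mm39) with STAR 2.7.9a, used SAMtools 1.9 and assigned reads to genes with featureCounts at its default settings, which count exons without regard to strand. The deposited values are raw UMI counts per gene for each barcode of a section. From these, CPM used column totals, and CPM per kb used the exonic length of each gene in GRCm39. Genes were tested with edgeR 4.0.16 (quasi-likelihood, TMM scaling, Benjamini-Hochberg adjustment over all genes tested, threshold 0.05) in R 4.3.3, after a filter with a minimum count of 3 and a total of 10. The method was tested on simulated data. DESeq2 1.42.0, RLE size factors, column totals, other filters, paired blocks, the mitochondrial genes left out and each section left out were alternatives. The quasi-likelihood test gives no SE. Each SE printed with an edgeR log2 fold change is therefore the size of that change divided by the square root of its F statistic. Figures used Python 3.11.15 and matplotlib 3.10.9.

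Depth ran from 30317 to 801105 UMIs per library. Intervals and the limits set by 3 UMIs cover counting error only.

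The members and lists were chosen with earlier results of these data known. Named genes were all members, up to 4 called genes of each pathway list and comparison with the smallest adjusted p, and the 5 genes most like Th or the member of highest CPM per kb. Other genes named were chosen after their values were seen. Some genes that these rules take in are not reported here.

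Pairing comes from the section, since libraries with the same number are barcodes of the same tissue section. The mean correlation of deviations was 0.0920 within a section (0.0288 to 0.257, the highest in section 2) and -0.0234 between sections for the amacrine libraries, and 0.0305 and -0.0102 for the layers. Sections were technical replicates, those of the layers came from 1 animal, and the methods speak of a single source animal. The cultures of mixed cell lines entered no comparison.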

Additional observations from a re-analysis of the deposited data

Results flagged for a closer look

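In each population of 4 or 5 libraries, a library was listed when its gap to the nearest other, divided by the range of the group, was above Dixon's 95% critical value for the size of the group. Of 37 groups with any spread (32 of gene levels and 5 of library totals) 9 were listed, all of gene levels, and chance lists about 1 in 20 groups. That rate does not hold at counts this low, since a group with UMIs in a single library is always listed. In 5 of them a single UMI in a single library was the whole signal: Slc6a3 in TH+ section 5 (33.0 CPM), Maob in TH- section 2 (5.79 CPM), Maob in ONL section 1 (1.25 CPM), Gch1 in BCL section 4 (4.94 CPM) and Ddc in GCL section 1 (1.27 CPM).

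The other 4 rested on more UMIs. Th in TH- section 4 stood at 49.9 CPM, from 10 UMIs, where the other TH- libraries had 2 or 3. Without that library the Th and Slc18a2 calls were unchanged. Slc18a2 in GCL section 3 stood at 12.3 CPM, from 8 UMIs against 2 in each other GCL library. Slc18a2 in BCL section 3 stood at 15.2 CPM, from 3 UMIs against 2. Spr in ONL section 4 was low, at 6.45 CPM from 2 UMIs.

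Counts of mouse 3T3 fibroblasts from the mixed cultures were used in no comparison. Over 3 wells and 540880 UMIs, Spr had 12 UMIs (22.2 CPM), and Slc18a2 and Qdpr had 5 each (9.24 CPM), above the 5.55 CPM that 0 UMIs allow. Pts had 2, and Th, Ddc, Gch1, Slc6a3 and Maob had 0.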

How the results depend on the processing

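Th and Slc18a2 kept their TH+ calls in 14 of 14 alternatives (log2 4.01 to 4.92 and 3.36 to 4.37), and Slc18a2 its ONL against GCL call in all 12 that tested it (1.69 to 3.06). Alternatives that left out the TH- library of section 2 or 4, or the GCL library of section 3, were chosen after seeing the data. In the amacrine cells 145 genes were called with sections paired as blocks against 48 without. Among members this pairing changed no call; among the other list and marker genes it added calls, as of 7 rod markers in TH+ and of Aldh2 in BCL against GCL (adjusted p = 0.0444). Leaving out 1 section gave 31 (without section 3) to 75 (without section 2) genes. Members called for ONL against BCL went from 1 to 0 with no filter and ranged from 0 to 1 without 1 section. For ONL against GCL they went from 2 to 1 with edgeR's default filter, which left out Slc18a2, and ranged from 1 to 2 without 1 section. Pts in ONL against BCL reversed without 1 section (log2 -0.16 to 0.13), as did Spr in BCL against GCL (-0.012 to 1.06), and neither was called; the cause was not tested. Low counts limit most members: differences in Slc6a3, Pts and Maob in the amacrine cells were not detectable at this depth.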

Other observations

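Aldh1a1, which oxidises aldehydes and was too low for the tests, had 16 of its 20 TH- UMIs in section 2 (92.6 CPM), where the other TH- libraries had 0 to 2. The same library had the highest Slc18a2 level of the TH- libraries (57.9 CPM).

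En2, a homeobox gene of the midbrain list, had 5, 4, 3 and 1 UMIs in ONL sections 1 to 4 (5.46 ± 1.59 CPM, SD, n = 4) and 0 in BCL and GCL, which allows up to 3.74 and 1.12 CPM. Tph1, which makes the precursor of serotonin, had 17 UMIs in ONL (6.88 ± 3.998 CPM), 2 in BCL and 6 in GCL. Neither entered the test. With no filter, edgeR called En2 higher in ONL than in GCL (adjusted p = 0.000225) and than in BCL (0.0331), and Tph1 higher in ONL than in GCL (0.0378).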
